A study of Arabidopsis thaliana with 18 samples.

Results

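Roots and shoots of phosphate-fed Arabidopsis thaliana were compared on 6 ATH1 arrays, 3 of mock roots and 3 of mock shoots, out of the 18 arrays of the series. The members are every probe set on the array except the manufacturer's controls, 22746 of 22810. All plants were Col-0, the standard laboratory accession, grown for 20 days on rock wool in aerated MGRL hydroponic medium with 1.75 mM phosphate, under 12 h of light at 22 °C. Mock plants then spent 10 further days in full medium and were 30 days old when sampled. The other 12 arrays were from the same organs after 10 days in medium in which MES buffer replaced phosphate (starved, also 30 days old) or after 3 more days back in full medium (replete). The labels call the above-ground samples shoots, for which the study's methods use both shoots and leaves, and no source used here gives how many plants each RNA sample held. The 3 arrays of a group are biological replicates, from replicate experiments as the study describes them. The p-values rest on the spread within groups, pooled over all 18 arrays, starved and replete ones included.

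Arabidopsis roots take up water and minerals and anchor the plant, and they are fed with sugar made elsewhere. Leaves fix carbon in chloroplasts, which keep a small genome of their own but import most of their proteins from nuclear genes. Root hairs, the endodermis and the dividing root tip have no counterpart in a mature leaf, and guard cells and mesophyll have none in a root. Whole organs were sampled, so more cells of a type and more RNA per cell cannot be told apart in any difference given here.

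Values are log2 units, 1 unit being a doubling. A difference is root minus shoot, so that a positive value is higher in roots, with the standard error (SE) of a limma fit over all 18 arrays. A probe set was called at a Benjamini-Hochberg adjusted p at or under 0.001. The platform table gave exactly 1 gene for enough probe sets to name 13356 genes, each read from 1 probe set, and most bear only a locus identifier. A family is described by the members that could be named, which are often a minority of it. The files hold no detection calls. As a gauge of a low level, AMS, SPL and MGH3, which act in anthers and pollen, read between 2.20 and 3.54 on the 6 mock arrays. A difference against a level in that range may understate the true one.

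The organs were far apart. The first principal component of the 6 mock arrays separated roots from shoots and held 97.1% of the variance. The lowest correlation between arrays of 1 organ was 0.993, and root with shoot arrays correlated at 0.743 to 0.764. These were taken over probe sets, which are not independent replicates. Of 22746 probe sets, 5570 (24.5%) were higher in roots and 4173 (18.3%) in shoots. The split depended on how arrays were put on 1 scale. With arrays centred on 13 reference genes 4716 were higher in roots and 4530 in shoots, a shift of the median difference by 0.10, and with centring on 14 spike-in probe sets the counts were 6292 and 3771. Calls in roots were more numerous but smaller, with a median size of 1.18 against 1.91 for shoots. At a size of 2 or more the order turned, with 1628 probe sets higher in roots (7.16%) and 2004 in shoots (8.81%). At 6 or more, 109 were higher in roots and 212 in shoots. Among the 13356 named genes 22.9% were called higher in roots and 16% in shoots, and 6.63% and 7.22% with a size of 2 or more. These are the shares against which the counts of each gene list are read, and no list was tested as a set.

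**Figure D1:**
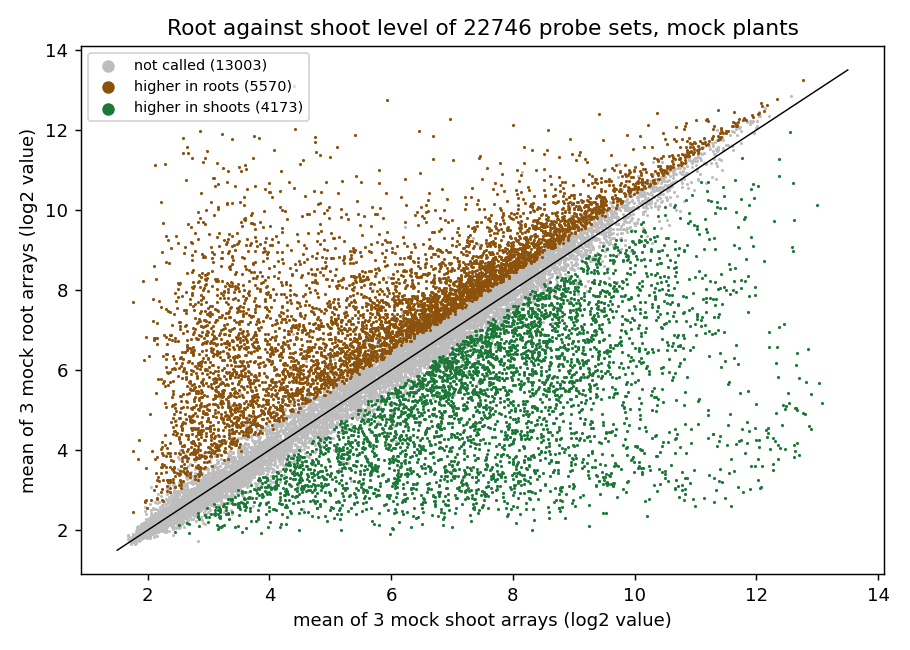
Mean log2 value of each of 22746 probe sets on 3 mock shoot arrays (x axis) and 3 mock root arrays (y axis), coloured by the limma call, with the line of equal level. Brown points (5570, higher in roots) are dense just above the line, while green points (4173, higher in shoots) reach farther from it at high shoot levels.

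Markers bore out both labels. All 8 green tissue markers that could be measured, of 32 listed, were higher in shoots, and their mean level was 3.80 to 4.33 on the root arrays against 9.45 to 9.61 on the shoot arrays. PRK, phosphoribulokinase of the Calvin cycle, read 3.08, 3.36 and 2.66 in roots, within the range of the pollen genes. EXPA7 and EXPA18, expansins of root hair cells, were the 2 root hair markers measured. EXPA7 read 9.11, 8.74 and 9.10 in roots and 3.89, 3.66 and 4.25 in shoots. PYK10, the main beta-glucosidase of root ER bodies and the sole measured marker of the endodermis and stele list, read 12.06, 12.29 and 12.02 in roots but also 7.98, 8.07 and 7.97 in shoots. IAA20 and IAA30, the 2 measured markers of the root tip list, lay between 3.62 and 4.18 in both organs and were not called. No seed marker could be measured.

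Photosynthesis genes formed the widest gap. Of 16 nuclear genes for photosystem subunits, antenna proteins and the Calvin cycle and its neighbours, 15 were higher in shoots, every one by more than 5 units, and 1 was higher in roots. Their median difference was -7.42, against 0.05 over all named genes. PRK read 11.84, 11.95 and 11.90 in shoots, a difference from its root values of -8.86 ± 0.17 (SE, adjusted p = 4.69e-17, n = 3 and 3). SBPASE, sedoheptulose-bisphosphatase of the same cycle, read 11.30, 11.54 and 11.45 in shoots and 2.93, 3.10 and 3.57 in roots. The groups of both enzymes were separated by more than 7 units.

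Photosystem I subunit PSAE-1 read 12.34, 12.36 and 12.44 in shoots and 3.49, 4.57 and 4.11 in roots, a difference of -8.32 ± 0.28. HPR, the peroxisomal hydroxypyruvate reductase of photorespiration, differed by -8.38 ± 0.15. The antenna genes LHCB4.1 and LHCB4.2 differed by -6.33 and -7.79, and RCA, the activase of Rubisco, by -7.12. Root arrays were less even than shoot arrays for these genes. Root array 2 was the highest of the 3 for PRK, PSAE-1, HPR, RCA and both LHCB4 genes, but root array 3 was for SBPASE. The exception in the list was ATPC2, a gamma subunit of the chloroplast ATP synthase, at 6.54, 6.70 and 6.49 in roots and 5.63, 5.49 and 5.58 in shoots (1.01 ± 0.16, adjusted p = 2.06e-05). Its paralogue ATPC1, the subunit of green tissue, differed by -7.09.

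Genes that assemble the photosystems or carry electrons around them followed. Of 28 measured, 26 were higher in shoots, 24 of them by 2 units or more, with a median of -3.31. PIFI, an ancillary subunit of the chloroplast NADH dehydrogenase-like (NDH) complex, read 11.40, 11.44 and 11.30 in shoots and 3.32, 3.08 and 3.26 in roots (-8.16 ± 0.12). NDH subunits NdhL, NdhS and NdhN differed by -7.06, -6.55 and -5.99. All 5 CRR genes named here, which build or edit transcripts of the same complex, were higher in shoots. Thioredoxins were divided. TRXF2, an f-type thioredoxin that activates Calvin cycle enzymes in light, differed by -4.52 and the y-type ty2 by -3.11, whereas TY1 was higher in roots, at 8.42, 8.14 and 8.22 against 5.76, 5.40 and 5.48 in shoots (2.71 ± 0.11, adjusted p = 2.88e-13).

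Pigment synthesis was higher in shoots with a smaller margin. Of 15 genes for chlorophyll, haem and carotenoids, 12 were higher in shoots and 1 in roots, with a median of -1.59. PORB, protochlorophyllide oxidoreductase, differed most, with 11.19, 11.42 and 11.43 in shoots and 4.12, 4.55 and 3.63 in roots (-7.25 ± 0.22). CHLI2 and CHLM, which commit tetrapyrroles to chlorophyll, differed by -5.13 and -3.99. Among steps that haem shares with chlorophyll, HEME1 and HEME2 differed by -3.15 and -3.13 and HEMB1 and GSA1 by -1.52 and -1.45. HEMA2, a glutamyl-tRNA reductase isoform known from non-green tissue, was higher in roots by 0.80 ± 0.17. The HEMA2 call (adjusted p = 6.13e-04) was lost without 4 of the 6 mock arrays, with adjusted p up to 4.70e-03.

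Among 22 genes of chloroplast division, protein import and proteolysis, 16 were higher in shoots and 2 in roots. The chaperonin 60 beta subunits went both ways. Cpn60beta4 read 7.36, 7.85 and 7.81 in shoots and 3.33, 3.50 and 3.20 in roots (-4.33 ± 0.13), Cpn60beta2 differed by -1.94, and Cpn60beta3 was higher in roots, at 8.90, 8.96 and 9.03 against 7.10, 7.21 and 7.14 (1.81 ± 0.09, adjusted p = 6.96e-12). FTSZ2-1 and FTSZ2-2, the tubulin-like proteins of the plastid division ring, differed by -1.70 and -2.45.

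Transcripts of the chloroplast genome were lower in roots. Of 69 measured, 64 were higher in shoots, none was higher in roots, and the median difference was -2.87. The mean level of the 69 was 5.11 to 5.19 on root arrays and 7.83 to 7.94 on shoot arrays. All 5 measured photosystem I genes were higher in shoots (median -3.69), as were 14 of 15 for photosystem II (-3.28), 9 of 10 for the NDH complex (-3.52) and all 6 for the ATP synthase (-2.87). The cytochrome b6f complex had 5 of 6 genes called with a median of -1.18. Of the genes for gene expression, 14 of 15 for ribosomal proteins were called (median -2.42) and 3 of 4 for RNA polymerase (-1.95). Differences between these groups were not tested.

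Probe sets for partners in 1 complex could differ. Each gene was read from 1 probe set, and a part of probe design or labelling in such differences was not tested. The photosystem I reaction centre gene psaB read 11.80, 11.55 and 11.52 in shoots and 6.39, 6.19 and 6.30 in roots (-5.33 ± 0.11), while its partner psaA differed by -1.96. Within the NDH complex, ndhJ had the largest difference of the 69 at -5.93 ± 0.10, and ndhF at -0.30 was not called. rbcL, the large subunit of Rubisco, differed by -3.26. For mitochondrial genome transcripts, none of 16 was called higher in roots and 5 were higher in shoots, none by as much as 1 unit, and this count fell to 2 without root array 2 and also lay between 2 and 5 under the scalings tried.

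Starch and sugar enzymes were mostly higher in shoots. Of 16 measured, 11 were higher in shoots and 3 in roots. ATSPS4F, a sucrose phosphate synthase, read 8.99, 8.74 and 9.29 in shoots and 3.36, 2.79 and 3.15 in roots (-5.91 ± 0.25, adjusted p = 7.30e-13). PPDK, pyruvate orthophosphate dikinase, differed by -4.77, the alpha-amylase AMY1 by -3.28, and APL3 and APL4, large subunits of the starch-synthesis enzyme ADP-glucose pyrophosphorylase, by -3.03 and -2.18. In roots the higher genes were cwINV6, a fructan exohydrolase of the cell wall invertase family (2.54 ± 0.30), the glycolytic mutase PGM (2.50 ± 0.11) and the enolase ENOC (0.58 ± 0.09).

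Most sugar transporters were not called, as were most probe sets of the array (13003 of 22746). Among 20 SWEET and vacuolar transporters, 4 were higher in shoots (20%), 3 in roots (15%) and 13 were not called. The shares of all named genes were 16% and 22.9%. SWEET11, which exports sucrose toward the phloem of leaves, read 9.88, 9.49 and 9.61 in shoots and 5.91, 5.12 and 5.16 in roots (-4.26 ± 0.20). SWEET1 differed by -4.05. SWEET16, a vacuolar member, was higher in roots, at 8.12, 8.20 and 8.07 against 5.24, 5.93 and 5.49 (2.58 ± 0.15), and the tonoplast transporter TMT1 was higher there by 1.15.

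**Figure D2:**
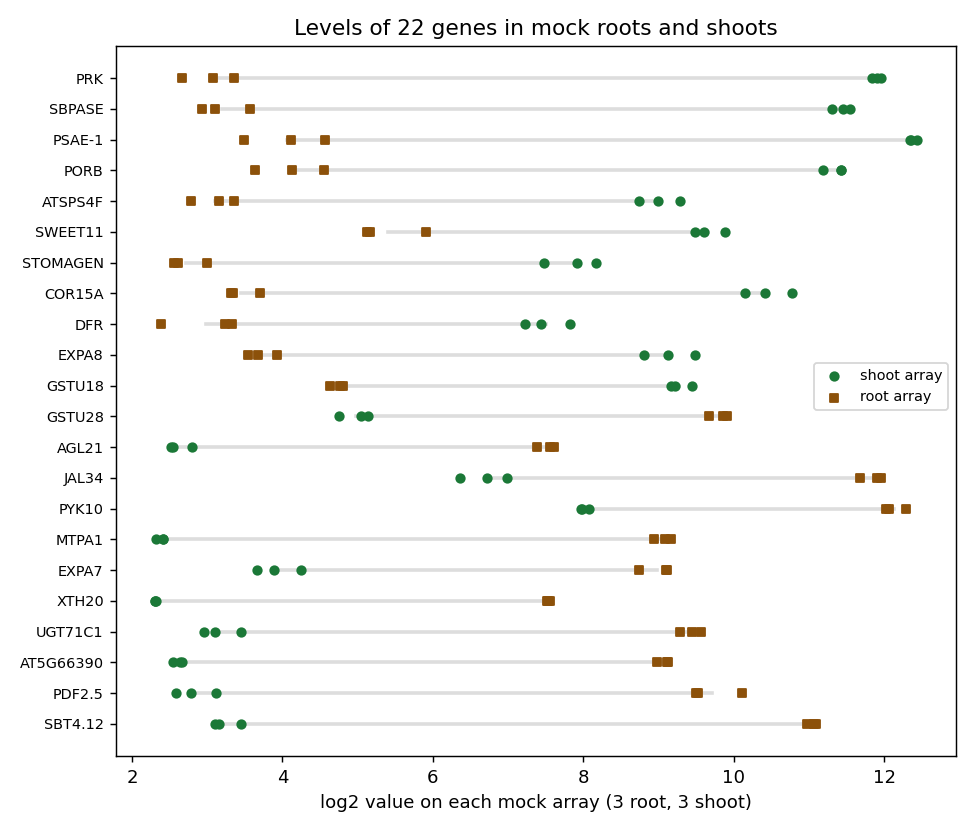
Log2 value of 22 genes on each of 3 mock root arrays (brown squares) and 3 mock shoot arrays (green circles), with a grey line between the means. No gene has overlapping organs, and the low organ of most lies between 2 and 5.

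Regulators of the leaf surface and of light responses were also found in shoots. Of 30 genes for photoreceptor signalling, the clock, stomata, trichomes and leaf form, 14 were higher in shoots (46.7%) and 7 in roots (23.3%). The root share was near the 22.9% of all named genes. STOMAGEN, the mesophyll peptide that promotes stomata, read 7.47, 8.17 and 7.92 in shoots and 3.00, 2.56 and 2.61 in roots (-5.13 ± 0.16, adjusted p = 8.73e-15). The stomatal lineage factors SPCH, MUTE and FMA (FAMA), which act in that order, differed by -1.59, -1.31 and -2.88. MUTE read at most 3.99 in shoots, so its level was close to the low gauge in both organs. YAB5 and YAB3, YABBY factors of the lower leaf side, differed by -3.96 and -3.91.

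Light genes were not all leaf genes. HYH, a bZIP factor of photomorphogenesis, differed by -2.58. FHL, which helps phytochrome A into the nucleus, was higher in roots by 2.02 ± 0.23 and SHB1 by 2.23 ± 0.15. The clock gene GI, at 0.42, was not called.

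Flavonoid genes had no root-high member. Of 8 measured, 6 were higher in shoots with a list median of -2.45. DFR, dihydroflavonol reductase of anthocyanin synthesis, read 7.44, 7.23 and 7.82 in shoots and 3.33, 3.23 and 2.39 in roots (-4.51 ± 0.48, adjusted p = 2.01e-07). UGT78D1 and UGT78D2, which glycosylate flavonols, differed by -4.90 and -2.90, and CHIL, a chalcone isomerase-like protein, by -3.37. BAN, an enzyme of seed coat tannins, did not pass the test at 0.04. Cold and drought proteins were split. COR15A, a chloroplast protein that protects membranes in freezing, read 10.15, 10.77 and 10.41 in shoots and 3.34, 3.70 and 3.31 in roots (-6.99 ± 0.19), and COR15B differed by -6.67. Of 15 genes in that list 6 were higher in shoots and 2 in roots, namely DI21 (2.20) and the dehydrin LTI30 (1.17).

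Metal transport genes differed in 1 direction. Of 16 genes for metal transport and iron deficiency, 8 were higher in roots (against 22.9% of named genes) and none in shoots. MTPA1, a metal tolerance protein of the cation diffusion facilitator family, read 9.08, 8.94 and 9.17 in roots and 2.41, 2.32 and 2.41 in shoots (6.68 ± 0.25, adjusted p = 1.15e-13). ZIP9, a zinc and iron transporter family member, read 10.14, 9.68 and 10.03 in roots but was uneven in shoots at 6.58, 5.65 and 7.06 (3.52 ± 0.30). BGLU42, a beta-glucosidase that acts in the release of iron-mobilising phenolics, was higher in roots by 2.92. Regulators of the iron response were mixed, with bHLH115 higher in roots by 1.52 and bHLH104 by 0.89, and PYE and bHLH121, at -0.05 and -0.09, not called.

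Nitrogen, sulfur and phosphate genes had calls both ways. Of 30 measured, 9 were higher in roots (30%) and 5 in shoots (16.7%), not far from the shares of all named genes (22.9% and 16%). The 3 largest root genes were AT1G72125 (NPF5.13 of the nitrate and peptide transporter family, 2.72 ± 0.15), ASPGB1, an asparaginase (2.42 ± 0.12), and ALN, allantoinase of purine breakdown (2.05 ± 0.10). The 3 largest shoot genes were other members of the NPF family, namely AT3G21670 (NPF6.4) at -3.96, AT2G26690 (NPF6.2) at -3.31 and AT1G68570 (NPF3.1) at -3.09. AT3G21670 read 9.20, 9.30 and 9.10 in shoots and 5.33, 5.33 and 5.07 in roots. LPR2, a ferroxidase that sets root growth in low phosphate, was higher in shoots by -2.42 (root minus shoot), whereas its paralogue LPR1, at 0.00, was not called. Of 18 cation/proton exchangers, vacuolar proton pump subunits and glutamate receptor channels none was higher in roots and 4 were higher in shoots, among them CHX20, an exchanger of guard cells (-2.71).

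Cell wall genes were commonly higher in roots. Of 11 xyloglucan enzymes, which cut and rejoin the tethers between cellulose fibres, 6 were higher in roots, each by more than 2 units, and 1 in shoots. XTH20 read 7.56, 7.52 and 7.53 in roots and 2.30, 2.30 and 2.32 in shoots (5.23 ± 0.16). XTH18 and XTH19, neighbours of it in sequence, differed by 4.84 and 4.04. XTH18 was uneven in shoots at 3.37, 4.06 and 4.94. XTH32 went the other way, at 8.96, 9.29 and 8.87 in shoots and 5.81, 5.66 and 5.19 in roots (-3.49 ± 0.23).

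Expansins, which loosen walls during growth, held the same opposition. Of 18, 8 were higher in roots and 2 in shoots. Besides EXPA7 (5.05 ± 0.20) and EXPA18 (4.19 ± 0.15), the beta-expansin EXPB2 was higher in roots by 3.21. EXPA8 read 8.80, 9.49 and 9.12 in shoots and 3.54, 3.67 and 3.93 in roots (-5.42 ± 0.28), and EXPA16 differed by -2.69. The EXPA7 and EXPA8 groups did not overlap in either case, with opposite order of the organs.

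TBL proteins, many of which acetylate wall polysaccharides, were called higher in roots in 11 of 22 cases and in shoots in 2. TBL21 and TBL39 led in roots (3.25 and 3.01) and TBL26 in shoots, at 7.39, 7.49 and 7.32 against 3.31, 2.92 and 2.53 in roots (-4.48 ± 0.34). Of 27 cellulose synthase-like and wall matrix genes, 12 were higher in roots and 2 in shoots. HRGP1, a hydroxyproline-rich glycoprotein of the wall, read 9.98, 9.43 and 9.57 in roots and 4.12, 3.52 and 3.62 in shoots (5.91 ± 0.20), followed by sks15 and sks16 of the SKU5 family (4.90 and 4.02). Both shoot-high genes of this list were pectin methylesterases, PME61 (-3.05) and PMEPCRF (-2.01), but another of that class, ATPMEPCRD, was higher in roots by 2.88. Of 15 family 9 cellulases 6 were higher in roots, led by GH9C1 (4.42 ± 0.11). That count fell to 3 without shoot array 1, shoot array 3 or root array 2.

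Among lignin, suberin and phenylpropanoid genes 13 of 22 were higher in roots (59.1%) and 2 in shoots. This was the largest root share of all lists of 7 or more genes, just above 57.1% for glutathione S-transferases. The count of 13 fell to 12 in some fits with 1 mock array left out, and to 11 under the scalings tried, so the lead is not firm. Class III peroxidases, which polymerise lignin or loosen walls, held the 3 largest differences of the lignin list. AT5G66390 (PRX72) read 8.98, 9.11 and 9.12 in roots and 2.67, 2.54 and 2.64 in shoots (6.45 ± 0.14, adjusted p = 1.49e-16), AT2G41480 (PRX25) differed by 5.32 ± 0.20 and Prx37 by 5.30 ± 0.22. PRX52, at -0.71, and AT5G64120, at 0.16, did not pass the test, and PRXR1 was called higher in roots by 0.43. UGT72E1, UGT72E2 and UGT72E3, which glucosylate lignin precursors, were higher in roots by 2.77, 4.47 and 3.83. FACT, a fatty alcohol caffeoyl transferase of root waxes, was higher there by 4.10, and CCR2 and HCT, of the pathway to monolignols, by 2.14 and 1.07. In shoots the larger call was UGT84A3, which glucosylates hydroxycinnamic acids, at 7.48, 7.47 and 7.23 against 3.12, 3.31 and 3.17 (-4.19 ± 0.22).

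**Figure D3:**
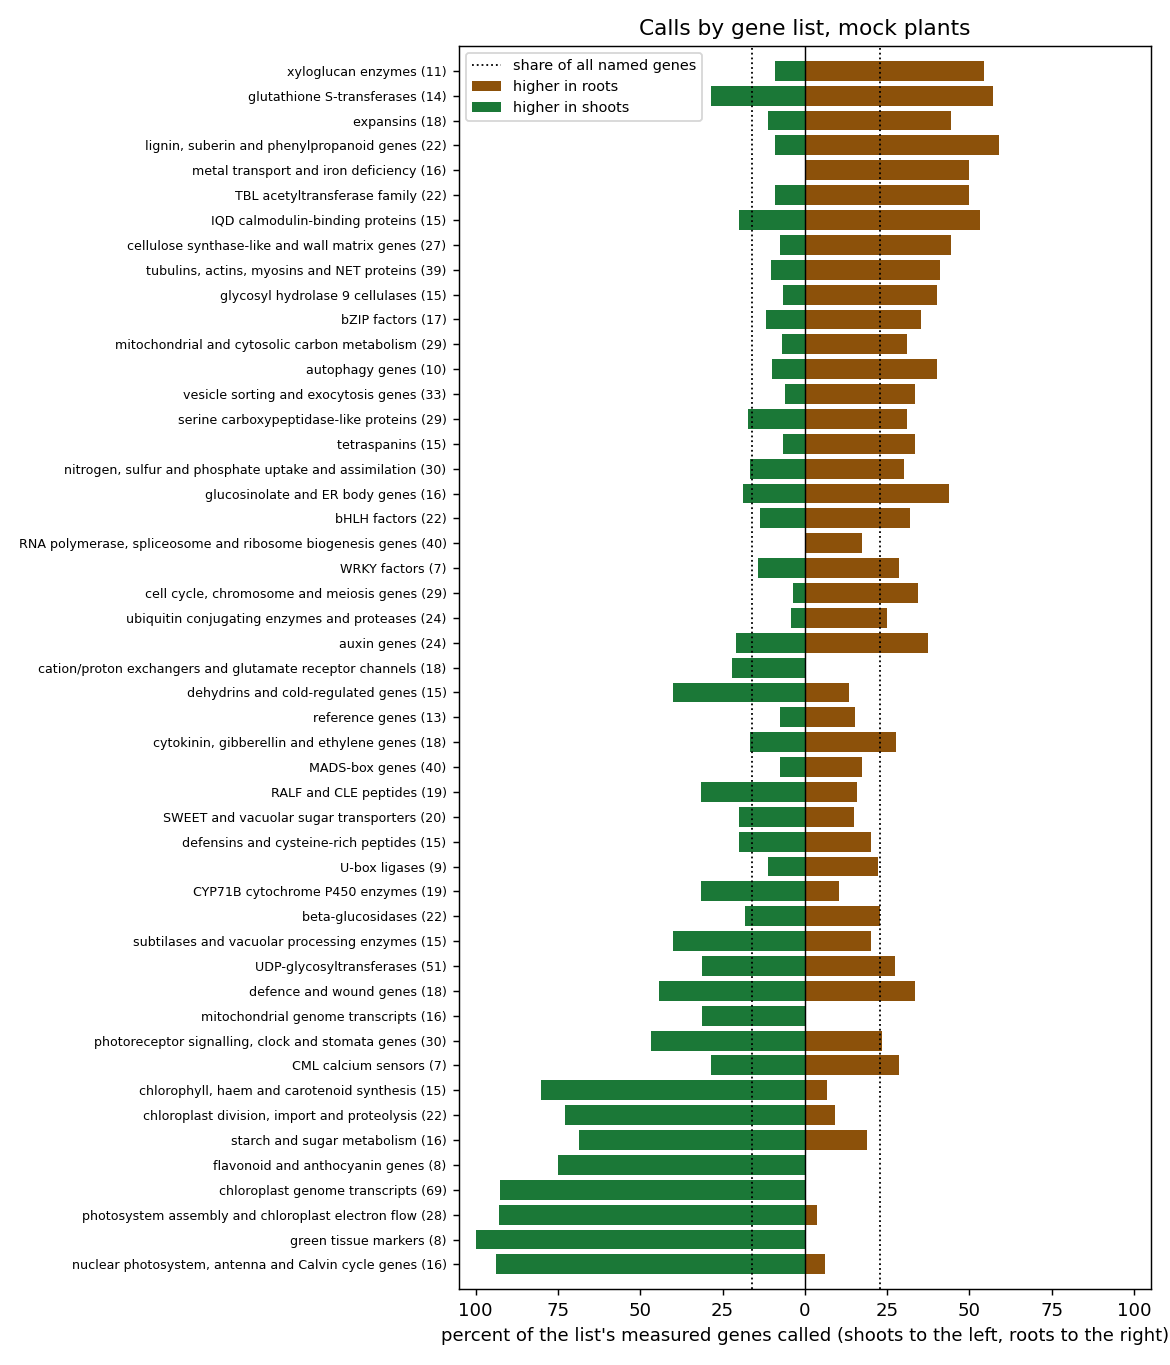
Percent of the measured genes of each list (number in brackets, lists of 7 or more genes) called higher in mock roots (brown, right) or mock shoots (green, left), ordered by median difference, with dotted lines at the shares of all named genes (22.9% and 16%). Photosynthesis and chloroplast lists reach farthest on the shoot side. The root side is longest for lignin genes (59.1%), narrowly ahead of glutathione S-transferases (57.1%).

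ER bodies, stores of beta-glucosidase in the endoplasmic reticulum of roots and seedlings, were represented by several of their known parts. NAI1, the bHLH factor required for them, was higher in roots by 1.80 ± 0.27, and NAI2, a body component, by 3.94. The lectins JAL33 and JAL34, which associate with PYK10, were higher in roots by 4.89 and 5.16. JAL34 read 11.68, 11.96 and 11.91 in roots and 6.99, 6.36 and 6.72 in shoots. JAL23 of the same lectin family was a shoot gene, at 6.52, 6.48 and 6.50 against 2.32, 2.18 and 1.98 in roots (-4.34 ± 0.19). Of the 16 genes in this list, which also holds glucosinolate synthesis and transport, 7 were higher in roots (43.75%) and 3 in shoots (18.75%). The glucosinolate transporters were opposed, with GTR1 at -1.08 ± 0.19 and GTR2 at 0.76, both called.

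Several large enzyme families had called members in both directions, as the shares of all named genes (22.9% and 16%) would also give. Of 14 glutathione S-transferases, which conjugate xenobiotics and stress metabolites, 8 were higher in roots, 4 in shoots and 2 were not called. GSTU28 read 9.91, 9.67 and 9.85 in roots and 5.14, 5.04 and 4.75 in shoots (4.83 ± 0.12). GSTU18 was its mirror, at 4.76, 4.63 and 4.81 in roots and 9.22, 9.45 and 9.16 in shoots (-4.54 ± 0.12). ATGSTF13 led the root side at 5.33, and GSTU16, GSTL3 and GSTU20 differed by -3.83, -3.63 and -3.34.

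UDP-glycosyltransferases, which attach sugars to hormones and secondary metabolites, numbered 51, with 14 higher in roots (27.5%) and 16 in shoots (31.4%). UGT71C1 read 9.29, 9.56 and 9.45 in roots and 3.45, 2.95 and 3.10 in shoots (6.27 ± 0.14, adjusted p = 2.06e-16). All 3 UGT72E genes were higher in roots, while 2 of 3 UGT78D and 2 of 4 UGT71B genes were higher in shoots and none in roots. Other subfamilies were mixed. Of 5 UGT71C genes 4 were higher in roots and UGT71C4 in shoots (-1.33), and of 3 UGT84A genes UGT84A4 was higher in roots (2.08) and UGT84A3 in shoots (-4.19). UGT88A1 had the largest shoot value, at 10.29, 10.59 and 10.48 against 5.70, 5.41 and 5.51 in roots (-4.91 ± 0.12).

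Of 22 beta-glucosidases, 5 were higher in roots (22.7%) and 4 in shoots (18.2%), close to the shares of all named genes (22.9% and 16%). Root-high members after PYK10 were BGLU46, which acts on monolignol glucosides, and BGLU15 (3.74 and 3.63). BGLU33, BGLU40 and BGLU44 were higher in shoots by more than 4 units each, and BGLU44 read 10.77, 11.12 and 10.98 there. Among 19 CYP71B cytochrome P450 enzymes, 6 were higher in shoots and 2 in roots, with CYP71B24 (-3.85 ± 0.17) and CYP71B37 (3.04 ± 0.15) at the ends. Among 29 serine carboxypeptidase-like proteins, 9 were higher in roots (31.0%) and 5 in shoots (17.2%), between scpl46 (-2.66) and scpl40 (3.71).

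Of 15 subtilases and vacuolar processing enzymes, 6 were higher in shoots (40%) and 3 in roots (20%). The shoot side held 3 to 6 under the scalings tried. SBT4.12, a subtilase, read 11.06, 11.09 and 10.97 in roots and 3.15, 3.10 and 3.45 in shoots (7.81 ± 0.13, adjusted p = 1.00e-17). The next subtilase on the root side was ATSBT5.2 at 1.67, and SBT1.3 was higher in shoots (-3.53 ± 0.12). Of 9 U-box ligases 2 were higher in roots (22.2%) and 1 in shoots (11.1%), against 22.9% and 16% of all named genes. PUB22 and PUB23, which restrain stress and immune responses, were higher in roots by 4.28 and 2.75, and the other 7 lay between -0.88 and 0.26. In the MSRB methionine sulfoxide reductases MSRB9 was higher in roots (3.39 ± 0.25) and MSRB6 in shoots (-5.50 ± 0.14).

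**Figure D4:**
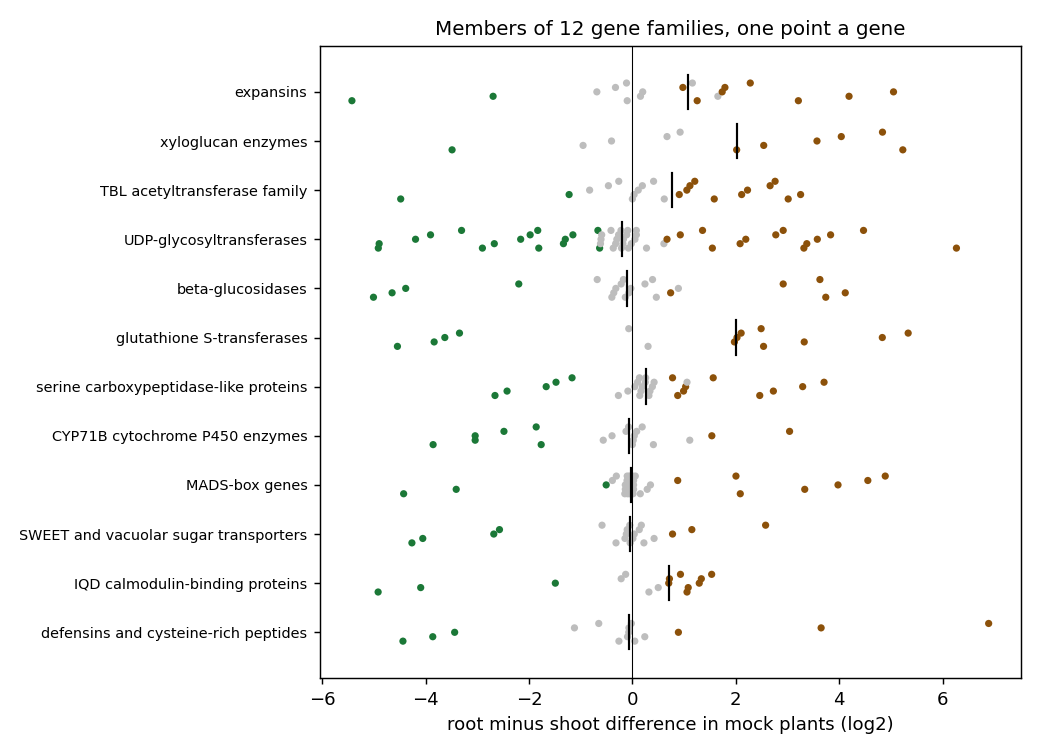
Root minus shoot difference in mock plants (log2, x axis) of each measured member of 12 families, brown where called higher in roots, green where called higher in shoots and grey where not called, with the family median as a bar. Each of the 12 families shown has called members on both sides, with extremes such as EXPA7 at 5.05 and EXPA8 at -5.42. Lists called only in roots or only in shoots are not among them. Examples are metal transport (8 higher in roots, 0 in shoots) and flavonoid genes (0 and 6). The shares of all named genes (22.9% and 16%) would also give calls both ways in many lists.

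Defence genes had called members in both directions. Of 15 defensins and cysteine-rich peptides, 3 were higher in roots and 3 in shoots (20% each), near the shares of all named genes (22.9% and 16%). PDF2.5, a plant defensin, read 9.53, 9.50 and 10.11 in roots and 2.78, 2.58 and 3.11 in shoots (6.89 ± 0.20), and PDF2.1 was higher in roots by 3.65. PDF1.2 and PDF1.2b, defensins known for induction by jasmonate and ethylene in leaves, were higher in shoots by more than 3 units. PDF1.2 read 7.57, 7.39 and 7.01 there and 2.78, 3.19 and 2.69 in roots (-4.44 ± 0.18). Their probe sets may share transcripts, as may those of other close pairs such as COR15A with COR15B, JAL33 with JAL34 and XTH18 with XTH19.

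Of 18 further defence and wound genes, 8 were higher in shoots (44.4%) and 6 in roots (33.3%), against 16% and 22.9% of all named genes. ECS1 read 12.71, 12.66 and 12.63 in shoots and 3.87, 4.77 and 3.88 in roots (-8.49 ± 0.25). ORA47, a factor of jasmonate synthesis, differed by -3.57, and JMT, which makes methyl jasmonate, by -2.14. OSM34, an osmotin-like protein, was higher in roots but spread widely, at 9.69, 9.38 and 10.69 against 3.84, 5.96 and 4.88 (5.03 ± 0.49, adjusted p = 6.59e-08). UGT76B1, which conjugates the immune regulators isoleucic acid and salicylic acid, was higher in roots by 3.58.

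Among transcription factors, MADS-box genes were mostly low and uncalled, 30 of 40, with 7 higher in roots (17.5%) and 3 in shoots (7.5%). All named genes had shares of 22.9% and 16%. AGL21, a factor of lateral root growth, read 7.55, 7.61 and 7.38 in roots and 2.80, 2.52 and 2.55 in shoots (4.89 ± 0.12). AGL42, AGL71 and AGL72, close relatives known from floral transition, were higher in roots by 4.55, 3.33 and 2.09, and AGL79 by 3.98. AGL24, a promoter of flowering, was higher in shoots, at 6.28, 6.46 and 6.27 against 3.33, 2.79 and 2.67 (-3.41 ± 0.16). AGL87 differed by -4.42.

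Of 22 bHLH factors 7 were higher in roots (31.8%) and 3 in shoots (13.6%), against 22.9% and 16% of all named genes. The 3 in shoots were the stomatal factors. UPB1, which controls peroxidases where root cells begin to elongate, was the highest on the root side at 3.86 ± 0.28. Of 17 bZIP factors 6 were higher in roots (35.3%), led by bZIP44 (3.68 ± 0.14), and 2 in shoots (11.8%). FD, the partner of florigen in the shoot tip, was higher in these roots by 2.12, at 4.95, 5.11 and 4.54 against 2.86, 2.92 and 2.45. Of 7 WRKY factors WRKY22 and WRKY6 were higher in roots by 2.31 and 1.75, and WRKY42 in shoots (-0.70), with 1 to 2 on the shoot side under the scalings tried.

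Of 19 RALF, CLE and related peptides 6 were higher in shoots (31.6%) and 3 in roots (15.8%), against 16% and 22.9% of all named genes. RALFL32, RALFL22 and RALFL27, of a family of growth-restraining peptides, were higher in roots by 2.81, 2.63 and 2.62, and these were the root calls. The shoot calls were STOMAGEN, given above, RALFL34 (-1.35), RALFL24 (-0.60), CLE21 (-1.20), and CLE44 and CLE41 (-1.38 and -0.69), which keep vascular stem cells dividing. Of 15 IQD proteins, which bind calmodulin, 8 were higher in roots, by at most 1.53, and 3 in shoots, of which iqd21 and IQD24 differed by -4.92 and -4.09. CML43 and CML42 were higher in roots by 3.30 and 2.09 and CML41 in shoots (-2.91).

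Of 24 auxin genes 9 were higher in roots (37.5%) and 5 in shoots (20.8%), against 22.9% and 16% of all named genes. GH3.17, which conjugates auxin to glutamate, read 8.92, 8.94 and 9.07 in roots and 5.24, 5.62 and 5.12 in shoots (3.65 ± 0.18). WAG2, a kinase of auxin transport, and LBD16 and LBD29, factors of lateral root initiation, were higher in roots by 2.40, 2.25 and 1.98. IAA29 and the auxin glucosyltransferase IAGLU were higher in shoots (-2.01 and -1.81). RR16 and ARR15, response regulators that cytokinin induces, were higher in shoots, RR16 at 6.49, 6.84 and 6.25 against 2.90, 2.64 and 2.88 (-3.72 ± 0.17). The gibberellin receptor GID1B was higher in roots by 1.97 ± 0.16, while GID1A and GID1C, at -0.02 and 0.13, were not called.

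Of 40 genes for RNA polymerases, splicing and ribosome biogenesis none differed by as much as 1 unit. In that list 7 were higher in roots (17.5%, against 22.9% of all named genes). The count was from 3 to 11 under the scalings tried, and from 4 to 5 with 1 mock array left out. Of 29 cell cycle and chromosome genes 10 were higher in roots (34.5%) and 1 in shoots (3.4%). Without shoot array 1 the root count was 6. The largest was SIM, an inhibitor of division in cells that enlarge their genome (2.09 ± 0.13), and all 3 Aurora kinases were higher in roots by 0.73 to 1.17. Of 29 genes of mitochondrial and cytosolic carbon metabolism 9 were higher in roots (31.0%) and 2 in shoots (6.9%). SDH1-2, a second copy of the succinate dehydrogenase flavoprotein, read 6.61, 6.49 and 6.81 in roots and 2.62, 2.69 and 2.62 in shoots (3.99 ± 0.16), against 0.53 for SDH1-1.

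Of 39 cytoskeleton genes 16 were higher in roots (41.0%) and 4 in shoots (10.3%), against 22.9% and 16% of all named genes. TUB1, a beta-tubulin, and SP1L4, a microtubule protein of the SPIRAL1 family, were higher in roots by 2.49 and 2.50, and the alpha-tubulin TUA1 was higher in shoots (-1.29). Of 33 vesicle sorting genes 11 were higher in roots (33.3%) and 2 in shoots (6.1%), with PRA1.B6 (2.04) and PRA1.F1 (-2.36) at the ends. Reference genes were not fully even. Of 13 measured, TUB6 (0.57) and PEX4 (0.41) were called higher in roots and AT5G55840 (-0.66) in shoots, and the PEX4 call was lost without 5 of the 6 mock arrays. GAPC2, cytosolic glyceraldehyde phosphate dehydrogenase, read 12.05, 12.07 and 12.05 in roots and 12.02, 12.00 and 11.97 in shoots.

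The largest differences of all belonged in good part to genes that bear only a locus identifier. No descriptions of these loci were at hand, so some may belong to families described above. A largest difference given above for a list or family therefore holds only among its listed members. Of the 12 largest root differences among named genes, 11 were such loci, and SBT4.12 was the other. AT1G26250 read 11.88, 11.68 and 11.87 in roots and 2.51, 2.61 and 2.60 in shoots (9.24 ± 0.13, adjusted p = 1.61e-18), and AT3G01190 read 11.86, 11.95 and 12.14 against 2.76, 3.01 and 2.79 (9.13 ± 0.11). AT4G30170, AT5G64100 and AT5G17820 followed at 8.77, 8.68 and 8.57. The shoot counterpart was AT1G09310, at 12.02, 12.17 and 12.02 in shoots and 2.89, 3.15 and 3.18 in roots (-9.00 ± 0.20). Of the 12 largest shoot differences 7 carried a symbol, and 6 of these, all but ECS1, were the photosynthesis genes PRK, HPR, PSAE-1, SBPASE, PSBY and PIFI.

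Most calls of the organ difference in mock plants recurred in the other conditions. In starved plants 28.2% of probe sets were higher in roots and 19.1% in shoots, and in replete plants 27% and 19.1%. Their group means came from arrays that the mock comparison does not share, but every comparison used the spread estimated over all 18 arrays. Recurrence of a call was therefore not a fully independent test. Of the 5570 root calls in mock plants 4543 (81.6%) were also called higher in roots in both other conditions, as were 3601 of the 4173 shoot calls (86.3%). Of the 1628 and 2004 calls of 2 units or more, 1566 and 1982 were called in all conditions. Medians of the photosystem list were -7.42, -7.34 and -7.20 in mock, starved and replete plants, and those of the xyloglucan list 2.02, 2.32 and 1.67. The change of the organ difference itself was called for 62 probe sets between starved and mock plants (0.273%) and for 3 between replete and mock plants (0.0132%). These tests share the mock arrays.

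Of the 270 genes that the naming rule took, 3 had such a change. MTPA1 was higher in roots in every condition, but its difference went from 6.68 in mock to 3.39 in starved and 2.24 in replete plants. Its root values were 9.08, 8.94 and 9.17 in mock plants, 5.50, 5.28 and 6.37 in starved and 5.16, 4.94 and 4.36 in replete plants, and no shoot array passed 2.90. The change was -3.30 (adjusted p = 7.78e-05) with starvation and -4.44 (adjusted p = 1.53e-05) after return of phosphate. GSTU28 went from 4.83 to 6.14 with starvation, a change of 1.31 (adjusted p = 4.01e-04).

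CYP78A9, a cytochrome P450 known from fruit and seed growth, exchanged organs. It was higher in shoots in mock plants (-2.19 ± 0.21), read 9.07, 8.81 and 8.36 in starved roots against 7.35, 7.25 and 6.55 in starved shoots (1.70, adjusted p = 1.09e-06), and was again higher in shoots in replete plants (-1.95). The change was 3.89 (adjusted p = 2.99e-06). Among starved arrays, number 3 of each organ stood apart. Within roots it had a first principal component score of 23.3, where its fellows had 52.1 and 49.5, and within shoots 13.3, where they had 34.3 and 34.4, and all mock arrays scored below 0. Without these arrays the changes were -3.71 for MTPA1 and 3.83 for CYP78A9, both still called, and 1.22 for GSTU28, no longer called (adjusted p = 1.39e-03). Across the array 3 probe sets called in mock plants had the opposite call in another condition. Besides CYP78A9 they were AT2G04460, which went from -0.89 to 1.14 with starvation, and a probe set with no gene named here, and both were singled out after their values were seen.

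**Figure D5:**
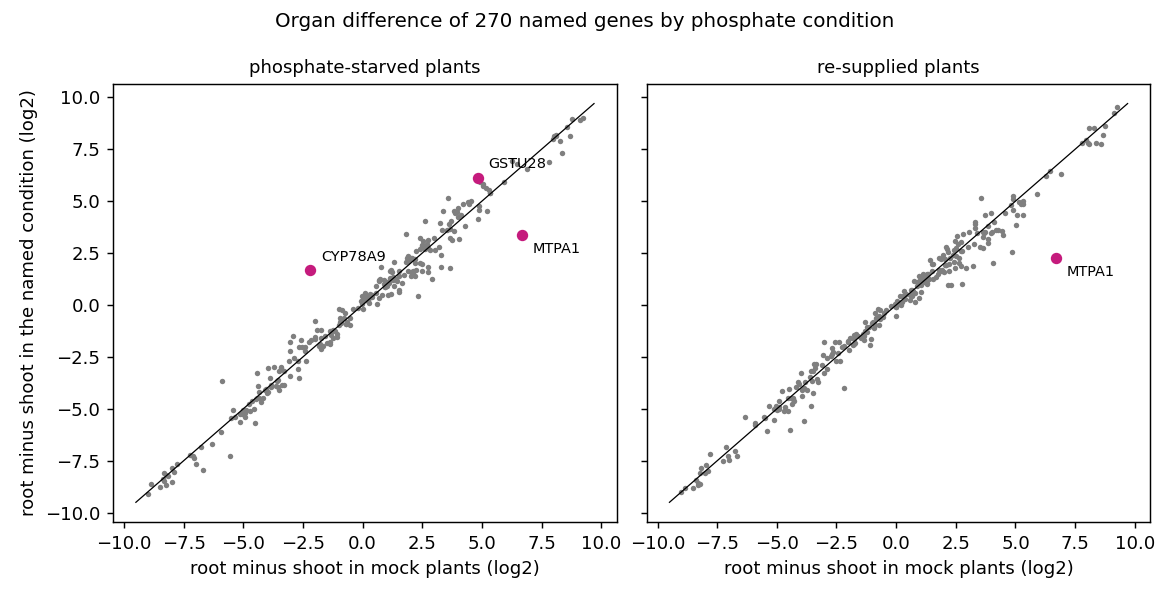
Root minus shoot difference (log2) of the 270 named genes in mock plants (x axis) against starved plants (left panel) and replete plants (right panel, titled re-supplied), with the line of equal difference. Pink points are genes whose change was called, and CYP78A9 lies on the other side of 0 in starved plants (-2.19 in mock, 1.70 starved).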

How the data were processed

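The authors deposited log2 values made with the R package affy (background correction, quantile normalization and median polish, its version not stated in the sources) for 22810 probe sets on 18 arrays. Quantile normalization forces the organs to 1 distribution, so directions of small differences are relative to it. No transformation was added, and the 64 control probe sets were left out. Scanner files were not used here. Precision is limited by having 3 arrays per group.

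Probe sets were named through the given platform table, with 13513 having 1 gene, 503 several and 8794 none, controls included. RefSeq identifiers matched 13436. A gene with several probe sets (146 genes) was read from the one with the highest mean over all arrays, and in none did probe sets have opposite calls. No coordinates or sequences were used here.

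One linear model with 6 group means was fitted to all 18 arrays (lmFit and eBayes, limma 3.58.1, R 4.3.3), and calls were made from two-sided p-values adjusted by Benjamini and Hochberg's method, to 0.001 or less. The study's methods name Bonferroni, which was an alternative. Members and the 55 lists were chosen with earlier results of these data known. The lists were first written as searches of gene descriptions, which the tables used here lack, and were rewritten as symbol families from the names alone. The naming rule took the 12 largest called differences in each direction without overlap of the 3 and 3 values, up to 3 called genes per list and direction, all marker and reference genes, and the extremes of symbol families with called members of 2 or more both ways. Further members of the lists are named beside these for context. The fit was tested on simulated data. Same-numbered mock root and shoot arrays had deviations correlated at 0.05, 0.21 and 0.02. Differently numbered arrays were not compared, so these values cannot decide whether a number marks a shared experiment. The main fit did not pair the organs. With replicate number as a block, 5615 probe sets were called higher in roots and 4226 in shoots.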

Additional observations from a re-analysis of the deposited data

Results flagged for a closer look

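Among the 270 genes taken by the naming rule, 3 had an organ difference that changed with phosphate, by a test of the change itself. Over the whole array 64 probe sets had such a change, 29 of them with 1 named gene. MTPA1 changed by -3.30 between starved and mock plants and by -4.44 between replete and mock plants, CYP78A9 by 3.89 and GSTU28 by 1.31, the last pair between starved and mock plants. In MTPA1 and CYP78A9 the root level moved and the shoot level stayed within 0.3 log2 units of its mock mean in starved plants. With 3 arrays in a group, no gene was searched for a single array far from the others.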

How the results depend on the processing

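Counts of probe sets higher in roots and in shoots (5570 and 4173) stayed within 1.5 times under every alternative but a pair. Bonferroni adjustment gave 2383 and 2593, and a test against a difference of 1 (treat) gave 1873 and 2293, so that the larger side turned under both. Roots held 57.2% of all calls, 47.9% with Bonferroni, 44.96% with treat, 51.01% after centring on reference genes and 62.5% after centring on spike-ins. With 1 mock array left out the root count lay between 4792 and 5045 and the shoot count between 3837 and 3945. Replicate number as a block gave 5615 and 4226, and the fit on the 6 mock arrays alone 4983 and 3894. No named gene reversed under any alternative. With a mock array left out, 7 to 11 of the 270 lost their call, all with a size under 1.4. Medians of the SWEET, CYP71B, beta-glucosidase, U-box, RALF, defensin, MADS-box and flower lists lay within 0.11 of 0 and turned positive with spike-in centring. Those of the exchanger, cytokinin, dehydrin and reference lists turned negative with reference-gene centring. In the filter on a mean of at least 5, 61 of the 270 genes were not tested. Over the members left, the median went from -0.10 to 0.74 for beta-glucosidases and from -0.02 to 0.155 for MADS-box genes. It went from 0.12 to -0.25 for auxin genes and from 0.06 to -0.69 for dehydrins and cold-regulated genes. For P450 enzymes other than CYP71B it went from 0.68 to -2.19. Among alternatives added after seeing the data, leaving out the starved arrays numbered 3 raised the calls for a starved minus mock change of the organ difference from 62 to 152, of which 54 were shared. Calls for the replete minus mock change went from 3 to 6 without the replete root array numbered 1 and to 1 with the replicate block.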
